A study of Mus musculus with 74 samples.

Results

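The listed genes were 10 mouse Nlrp genes that are active in oocytes, namely Nlrp4a, Nlrp4b, Nlrp4c, Nlrp4d, Nlrp4e, Nlrp4f, Nlrp5, Nlrp9a, Nlrp9b and Nlrp9c, out of 55413 annotated genes. They were listed by name. In the annotation (GENCODE M21, mm10) 9 of the 10 lie on chromosome 7, between positions 6045161 and 26575615, and Nlrp4f lies on chromosome 13 (65177111 to 65205977, minus strand), so Nlrp4f was kept out of every pooled coverage value and is given apart. Nlrp4d is annotated as an unprocessed pseudogene and the other members as protein-coding.

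The study followed H3K9me3, the trimethylation of lysine 9 of histone H3, through somatic cell nuclear transfer (SCNT), in which the nucleus of a cumulus cell (CC) replaces that of an oocyte. One peak list each was deposited for CC, for 2 time points of the SCNT 1-cell embryo (6 and 14 h post activation, hpa), for SCNT 2-cell, 4-cell and 8-cell embryos and morulae, for both lineages of the SCNT blastocyst, namely trophectoderm (TE) and inner cell mass (ICM), and for fertilized zygotes at pronuclear stage 5 (PN5), 10 lists in all. CC and recipient oocytes came from B6D2F1 females and fertilized zygotes from C57BL/6 mice. Per the study's methods the PN5 data came from an earlier publication, whereas the labels list the PN5 libraries with the others of this series. Strain and type of embryo cannot be told apart in any comparison with PN5, nor can study if the methods hold for these libraries. ICM and TE were separated by micromanipulation and polar bodies were removed, and chromatin of pooled cells was digested with micrococcal nuclease without crosslinking. By the labels a group held between 2 (ICM, TE and PN5) and 7 (8-cell) precipitated libraries. All replicates of a group were pooled before peaks were called, so each value below is a single value with no replicate error, and no test across samples was possible. Cell type markers are expression markers and could not be checked in lists of H3K9me3 peaks.

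NLRP proteins carry a pyrin domain, a nucleotide-binding NACHT domain and leucine-rich repeats. Several members of this family are best known as innate immune sensors, whereas most of the genes described here have multiplied in rodents and are expressed mainly in the female germ line. Nlrp5, also called Mater, encodes a component of the subcortical maternal complex, a protein assembly stored in the oocyte, and embryos of mothers without it arrest early in cleavage. H3K9me3 is a mark of heterochromatin that is associated with gene silencing, and it covers many clustered, tissue-restricted gene families in somatic cells.

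The members fell into sequence groups. Between the longest coding sequences, nucleotide identity was 93.9% for Nlrp4c and Nlrp4e, 86.3% for Nlrp4a and Nlrp4c, 87.4% for Nlrp9a and Nlrp9c and 84.2% for Nlrp9a and Nlrp9b. Nlrp5 stood apart, with 61.7% identity to its nearest listed relative, Nlrp4b. Close copies can share reads, and the share of 64-base words of a gene that occur once on the assembled chromosomes was 72.3% in Nlrp4e, 75.1% in Nlrp4c, 76.9% in Nlrp9c and 77.6% in Nlrp9b, against 91.9% to 97.4% in the other members on chromosome 7.

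A promoter sequence was found in the RefSeq table (GRCm38.p6) for 9 of the 10 genes, all but Nlrp4d, and for 8 of these the RefSeq start site lay within 300 bases of the GENCODE 5′ end. The RefSeq start of Nlrp9b lay 16558 bases downstream. The promoters shown here are those whose H3K9me3 values are contrasted further on, and each is given as the 250 bases upstream of the start site, 5′ to 3′ on the strand of the gene, with every CpG dinucleotide in capitals.

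Nlrp5 (chr7:23385639-23385888, plus strand): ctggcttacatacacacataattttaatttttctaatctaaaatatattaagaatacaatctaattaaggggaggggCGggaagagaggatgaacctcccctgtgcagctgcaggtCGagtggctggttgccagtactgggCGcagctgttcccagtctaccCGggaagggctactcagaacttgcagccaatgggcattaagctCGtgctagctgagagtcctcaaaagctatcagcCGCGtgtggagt

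Nlrp4b (chr7:10687543-10687792, plus strand): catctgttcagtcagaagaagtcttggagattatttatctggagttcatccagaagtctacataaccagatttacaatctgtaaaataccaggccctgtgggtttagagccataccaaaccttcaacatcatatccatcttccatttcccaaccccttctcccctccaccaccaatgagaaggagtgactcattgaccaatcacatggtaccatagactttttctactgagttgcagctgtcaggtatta

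Nlrp4c (chr7:6044911-6045160, plus strand): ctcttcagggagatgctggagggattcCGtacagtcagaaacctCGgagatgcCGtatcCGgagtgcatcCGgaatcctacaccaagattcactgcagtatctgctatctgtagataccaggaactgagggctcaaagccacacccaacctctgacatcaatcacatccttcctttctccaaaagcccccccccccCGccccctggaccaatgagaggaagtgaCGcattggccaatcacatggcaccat

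Nlrp9a (chr7:26534773-26535022, plus strand): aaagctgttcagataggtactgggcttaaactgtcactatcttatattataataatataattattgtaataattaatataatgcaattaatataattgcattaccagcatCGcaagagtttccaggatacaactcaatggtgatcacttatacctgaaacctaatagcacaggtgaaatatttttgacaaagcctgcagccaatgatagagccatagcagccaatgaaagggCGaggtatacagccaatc

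Nlrp9c (chr7:26403701-26403950, minus strand): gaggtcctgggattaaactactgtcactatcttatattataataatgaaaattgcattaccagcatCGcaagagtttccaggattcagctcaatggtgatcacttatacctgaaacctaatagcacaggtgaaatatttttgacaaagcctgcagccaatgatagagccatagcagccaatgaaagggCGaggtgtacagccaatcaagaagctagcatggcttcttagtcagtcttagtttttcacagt

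Over the 300 bases from 250 before to 50 after the start, the 8 members with matching start sites, Nlrp4f among them, had between 0 (Nlrp4e) and 9 (Nlrp5) CpGs with a median of 2, against a median of 7 over 32851 RefSeq promoters, and their median observed-to-expected CpG ratio was 0.192 against 0.384. Nlrp9a and Nlrp9c shared 96.4% of 253 aligned promoter bases, and Nlrp4b and Nlrp4c 78.5% of 260. The E-box letters CANNTG, the core motif bound by FIGLA and other basic helix-loop-helix factors, were present on either strand in 8 of 8 members and in 72.3% of all promoters. TAATTG, a motif bound by the oocyte homeobox factor NOBOX, was present in 1 of 8 (Nlrp9a) and in 8.0% of all promoters. CCAAT, searched after the sequences had been seen, was present in 6 of 8 and in 37.4% of all promoters, and TATAAA in 0 of 8 and in 13.6%.

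In CC, H3K9me3 peaks covered most of the length of these genes. Merged peaks covered 78.8% of the 494246 bases of the 9 gene bodies, against 10.3% of the summed length of the protein-coding genes of chromosome 7 and 5.40% over all protein-coding genes. Of 495 windows of 1 kb over the 9 genes, 79.0% were marked in CC, meaning covered to at least 50% (Wilson 95% interval 75.2 to 82.3%). These intervals and all others below cover counting error only. A gene body covered to at least 50% was counted as marked, and 8 of 9 members were marked in CC, whereas 4.76% of 21938 protein-coding genes were.

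Coverage was far lower in every SCNT list. Embryos at 6 hpa had a pooled value of 29.6%, those at 14 hpa 45.4%, 2-cell embryos 19.2%, 4-cell embryos 15.2%, 8-cell embryos 13.2%, morulae 18.0%, ICM 15.8%, TE 15.5% and PN5 zygotes 6.35%. The corresponding values over all protein-coding genes varied only between 3.33% (2-cell) and 5.44% (14 hpa), and those over chromosome 7 between 4.70% (ICM) and 10.3% (CC). In PN5 the members were therefore close to the 6.64% of the genes of chromosome 7 and the 4.76% of all genes. Members marked over the gene body numbered 1 of 9 at 6 hpa (3.83% of all genes), 4 of 9 at 14 hpa (3.40% of all genes) and 0 of 9 in each later list and in PN5. In those lists the share over all genes was 1.98% for 2-cell, 2.26% for 4-cell and 2.23% for 8-cell embryos, 1.68% for morulae, 1.08% for ICM, 0.843% for TE and 1.95% for PN5.

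**Figure D1:**
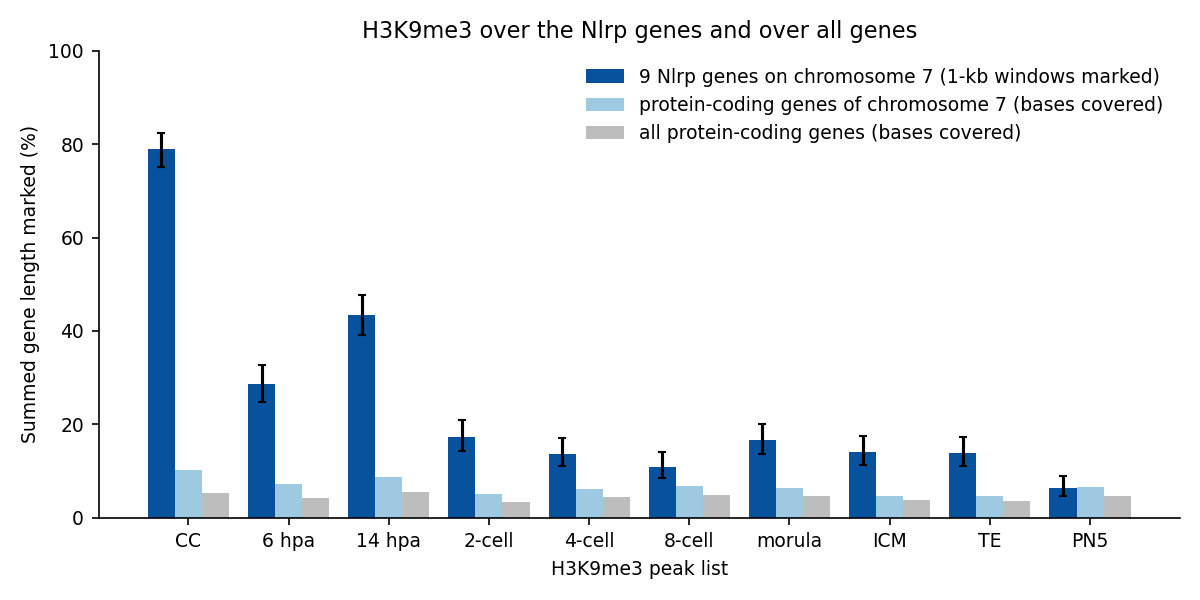
Percent of the summed length of genes marked by H3K9me3 in each of the 10 peak lists: dark bars, 1-kb windows of the 9 Nlrp genes with Wilson 95% intervals as error bars (counting error only); light blue and grey bars, bases covered over the protein-coding genes of chromosome 7 and of the whole genome. The Nlrp genes stand at 79.0% in CC, and in PN5 their bar is level with that of chromosome 7.

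The single genes followed this course to different extents. Nlrp5 was the most covered member in CC, at 96.2% of its 56034 bases (chr7:23385889-23441922). Both 1-cell lists (6 and 14 hpa) covered 55.3% of it, 2-cell embryos 21.4%, 4-cell embryos 8.68%, 8-cell embryos 6.71%, morulae 9.87%, ICM 4.32%, TE 3.10% and PN5 zygotes 2.10%. Nlrp5 was thus the only member marked at 6 hpa, and in ICM and TE it was the least covered member after Nlrp9a.

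Nlrp4e, the neighbour of Nlrp5 (chr7:23301192-23362277), had higher coverage from 14 hpa on. CC peaks covered 94.5% of it, those of 6 hpa 43%, 14 hpa 70.2%, 2-cell embryos 34.9%, 4-cell embryos 31.3%, 8-cell embryos 31.1%, morulae 24.7%, ICM 26%, TE 29.8% and PN5 zygotes 19.5%. It was the most covered member in 4 lists, namely 14 hpa and the 3 cleavage lists, and also in PN5. Although both genes were almost entirely covered in CC and lie 23.6 kb apart, their values in TE were 29.8% and 3.10%.

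Nlrp9c (chr7:26322473-26403700) resembled Nlrp4e, with 87.9% in CC, 38.2% and 55.1% in the lists of 6 and 14 hpa, 30.4%, 27.2% and 18.5% in 2-cell, 4-cell and then 8-cell embryos, 33.3% in morulae, 29.7% and 29.9% in ICM and TE, and 13.2% in PN5. Its near copy Nlrp9a (chr7:26535023-26575615), only 131 kb away, had 81.4% in CC and then, in the same order, 9.15% and 20.8% in the 1-cell lists, 2.33%, 1.18% and 1.84% in the cleavage lists, 6.25% in morulae, 0.52% and 1.35% in ICM and TE, and 0% in PN5. With trimmed lists the pair already differed in CC, at 68.4% for Nlrp9c and 7.93% for Nlrp9a. The share of single-copy 64-base words also differed, at 76.9% in Nlrp9c and 95.3% in Nlrp9a, and its part in the difference was not tested.

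Nlrp4a (chr7:26435113-26476142), between these, had 88.3% in CC, 31% and 36.7% in the 1-cell lists, 6.66 to 16.7% from 2-cell embryos to the blastocyst, and no peak in PN5. Nlrp4b (chr7:10687789-10730168) and the pseudogene Nlrp4d (chr7:10358873-10388935) had 83.7% and 80.3% in CC, where both were marked, then 13% and 14.4% (6 hpa) and 35.4% and 29.2% (14 hpa). From the 2-cell stage on, Nlrp4b ranged from 3.56 to 12.6% and Nlrp4d from 2.09 to 7.55% in SCNT embryos, so both were low throughout. Nlrp4c (chr7:6045161-6105150) had 67.4% in CC, 32.4% and 55% in the 1-cell lists, between 18.8 and 23% in each list from 2-cell embryos to the blastocyst, and 4.96% in PN5.

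Nlrp9b (chr7:19991465-20073306) was the only member on chromosome 7 not marked in CC, at 45.3%, and its 23 CC peaks were short, the longest having 6522 bases. In the 1-cell lists it had 15% and 30.9%, in later SCNT lists 8.63 to 17%, and in PN5 3.98%. Nlrp4f on chromosome 13 differed from all of them, with 17.7% in CC, 3.06% and 11.7% in the 1-cell lists, at most 7.45% in later SCNT lists and no peak in 2-cell embryos, TE or PN5.

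**Figure D2:**
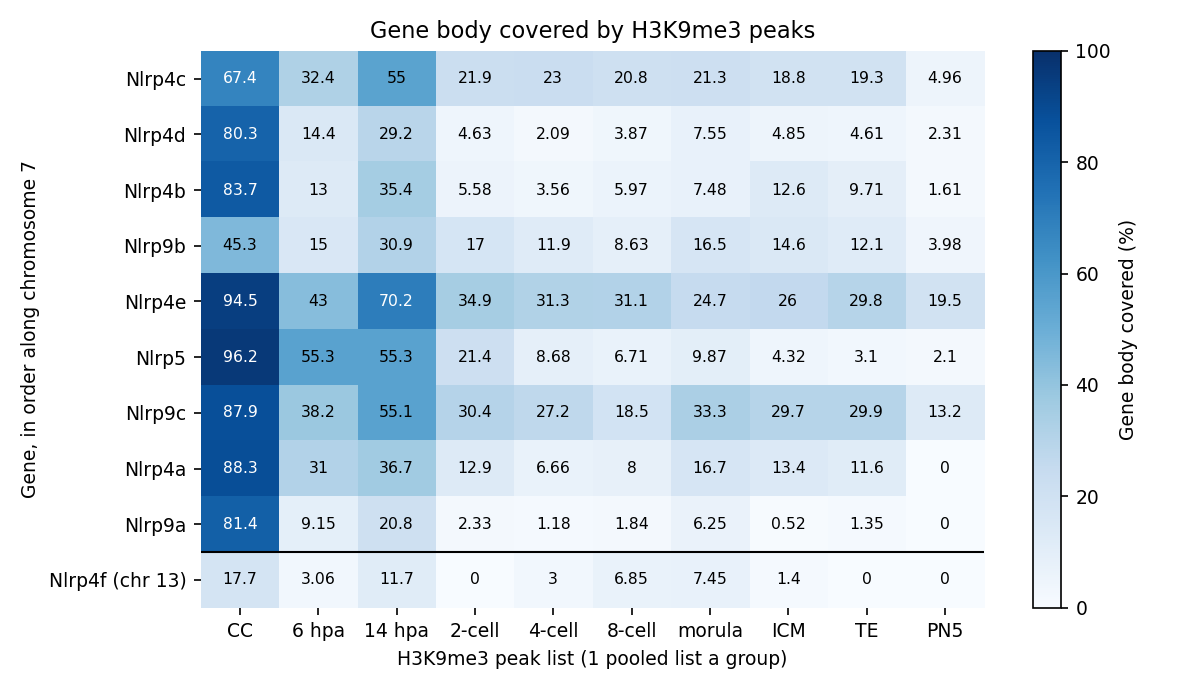
Percent of each gene body covered by merged H3K9me3 peaks (colour and printed value) for the 10 listed Nlrp genes, in order along chromosome 7 with Nlrp4f of chromosome 13 under the line, in the 10 peak lists. The CC column is dark for 8 of the 9 genes on chromosome 7, and from the 2-cell stage on the rows of Nlrp9a, Nlrp4d and Nlrp4f are among the palest.

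From CC to 6 hpa, the first step after transfer, 9 of 9 members were lower by at least 10 percentage points, as were 7.39% of all protein-coding genes. The differences ran from -72.3 points in Nlrp9a to -30.3 points in Nlrp9b, with a median of -51.5 against a median of 0 over all genes, and the pooled coverage at 6 hpa was 0.376 of that in CC. Total covered length was also smaller at 6 hpa, at 157 Mb against 255 Mb in CC. With every list trimmed to the same covered length the ratio was 0.549, so pooled coverage was lower at 6 hpa under that setting too. Among the members only Nlrp4c then went the other way, at 23.3% in CC and 32.1% at 6 hpa. Nlrp9a stood at 7.93% and 4.33%.

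From 6 to 14 hpa, 7 of 9 members were higher by at least 10 points, as were 6.40% of all genes, with a median difference of 15.9 points and a pooled ratio of 1.53. Nlrp4e had the largest difference at 27.2 points, and Nlrp5 did not differ. This direction depended on how much of the genome each list covered: the 14 hpa list covered 237 Mb, and with all lists trimmed to 134 Mb, keeping the peaks of highest −log10 q, members stood at 27.9% (6 hpa) and 21% (14 hpa), a ratio of 0.753. When peaks had to reach a −log10 q of 2 the ratio was 1.58 and with peaks closer than 1 kb joined it was 1.49, so the direction reversed under trimming only among these settings.

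From 14 hpa to the 2-cell stage, 9 of 9 members were lower by at least 10 points (7.95% of all genes), with a median difference of -24.7 points and a pooled ratio of 0.424. Trimming the lists to equal length brought the ratio to 0.886, and 4 of 9 members were then higher in 2-cell embryos than at 14 hpa. Nlrp4c stood at 6.02% at 14 hpa and 20.6% in 2-cell embryos, Nlrp9b at 13.8% and 17%, Nlrp4a at 9.9% and 12.9%, and Nlrp9a at 0% and 2.33%. After that stage the pooled values of the SCNT lists lay between 13.2 and 19.2%, and the window intervals of neighbouring stages overlapped.

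In PN5, 9 of 9 members were lower than at 14 hpa by at least 10 points (9.42% of all genes) and 9 of 9 were lower than in CC (10.1% of all genes). The medians of these differences were -36.7 and -78.0 points, and pooled coverage in PN5 was 0.140 of that at 14 hpa and 0.0806 of that in CC. The complete PN5 list covered 134 Mb, against 237 Mb at 14 hpa and 255 Mb in CC. With lists trimmed to 134 Mb, only Nlrp4e, Nlrp5 and Nlrp9c were lower than at 14 hpa by at least 10 points. Nlrp4c then stood at 6.02% at 14 hpa and 4.96% in PN5, and Nlrp9a at 0% in both. Against CC, only Nlrp9a (7.93% in trimmed CC) then differed by less than 10 points. Nlrp4a and Nlrp9a had no peak in PN5, and Nlrp4e (19.5%) and Nlrp9c (13.2%) were the only members above 5%. Bases outside peaks may still carry H3K9me3 below the threshold of the peak caller.

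Fold enrichment over input, averaged over covered bases, had a median of 2.88 over the 9 members in CC (2.81 to 3.30), against 2.87 over 10266 protein-coding genes with a peak. The median over members was 2.96 at 6 hpa against 2.75 over all genes, 2.79 at 14 hpa against 2.91, 3.33 in 2-cell embryos against 3.16, 3.33 in ICM against 3.30, 3.50 in TE against 3.31 and 3.0 in PN5 against 2.91, the last over the 7 members with a peak. None of these differences could be set against a replicate error.

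What set CC apart was the length of the peaks. The longest CC peak at Nlrp9c spanned 59291 bases (chr7:26290395-26349685), that at Nlrp4e 45480 bases (chr7:23280170-23325649), that at Nlrp5 41533 bases (chr7:23404510-23446042) and that at Nlrp4b 28566 bases (chr7:10665868-10694433). Of 167651 CC peaks, 90 were at least as long as the first, 145 as the second, 171 as the third and 370 as the fourth. Over the 9 genes, the longest peak of the 6 hpa list had 8003 bases, that of 14 hpa 17520, that of TE 8953 and that of PN5 4491. These were also among the longer peaks of their own lists. At least as long were 599 peaks at 6 hpa, 204 at 14 hpa, 672 in TE and 2128 in PN5. While CC had 82 peaks over the 9 genes, 6 hpa had 118 and 14 hpa 125, so the covered length was smaller and divided into more pieces.

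Promoters were taken as 1 kb on either side of the 5′ end, and in CC 6 of the 9 were covered to 100%, Nlrp9b to 94.7%, Nlrp9c to 93.4% and Nlrp9a to 40.7%. A promoter was counted as marked when at least 50% of it was covered or when it held at least 50% of a peak. By that rule 8 of 9 members were marked in CC against 10.3% of all genes, 8 in 6 hpa embryos against 31.4%, 5 in 14 hpa embryos against 10.8%, 3 in 2-cell embryos against 8.52%, 1 in 4-cell embryos against 6.98%, 1 in 8-cell embryos against 7.53%, 2 in morulae against 5.61%, 1 in ICM against 4.50%, 1 in TE against 4.57% and 3 in PN5 against 9.13%. At 6 hpa 5 of the 8 were marked only because a peak lay mostly inside the promoter, and 3 were covered to at least 50%. The share over all genes was highest at 6 hpa as well.

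Covered lengths show the course of each promoter. Coverage of the Nlrp5 promoter, printed above, was 100% in CC, 59.1% and 100% in the lists of 6 and 14 hpa and 30.1% in 2-cell embryos, with no peak in any later list or in PN5. The Nlrp4b promoter had 100% in CC, then 4.15% and 58.5% in the 1-cell lists, and the Nlrp4c promoter 100%, 46.7% and 77.6%. Neither had a peak in any later list.

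The promoters of Nlrp9c and Nlrp9a were near-identical over 253 aligned bases, and identity over the wider window used for coverage was not computed. Their coverage was 93.4% and 40.7% in CC, 32.5% and 31.7% in 6 hpa embryos and 0% and 23.2% in 14 hpa embryos. Nlrp9c then had a promoter peak only in TE (24.6%) and Nlrp9a in no later list. The Nlrp4a promoter was at 100% in CC, 53.9% in 6 hpa embryos and 0% in every list after that. The Nlrp4e promoter had a peak in 8 of the 10 lists, more than any other member, with 100% in CC, 98.5% and 60.7% in the 1-cell lists, 61%, 29% and 0% in 2-cell, 4-cell and then 8-cell embryos, 10.8% in morulae, 7.25% in ICM, 0% in TE and 19.9% in PN5.

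Nlrp9b depended on the annotation. At its GENCODE 5′ end promoter coverage was 94.7% in CC, 24.7% and 86.8% in the 1-cell lists, 23.1% in 2-cell embryos, 0% in the later SCNT lists and 38.7% in PN5, whereas around its RefSeq start site it was 0% in all 10 lists. The Nlrp4d promoter was at 100% in CC, 15.2% and 25.7% in the 1-cell lists, 23.1% in 8-cell embryos, 16.9% in morulae and 7.7% in PN5, and had no peak in the other 4 lists. The Nlrp4f promoter on chromosome 13 was at 10.1% in CC, 18.8% and 48% in the 1-cell lists, and at 0% in the other 7.

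**Figure D3:**
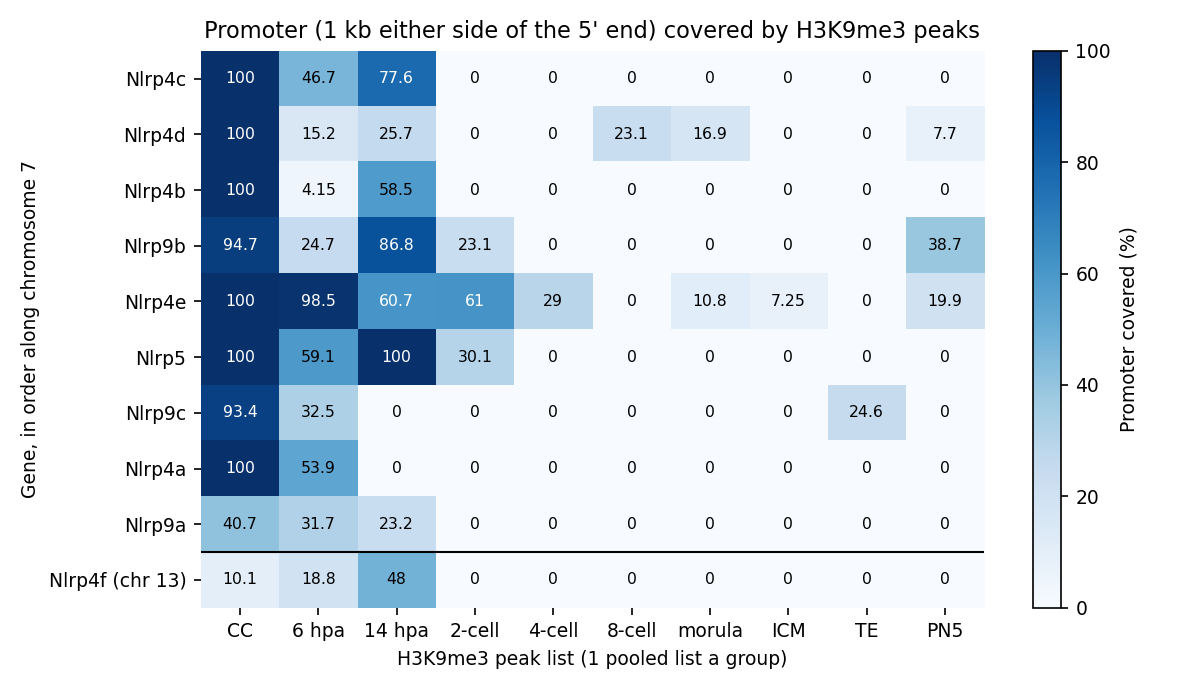
Percent of the promoter (1 kb either side of the GENCODE 5′ end) covered by H3K9me3 peaks for each of the 10 listed genes in the 10 peak lists, with Nlrp4f of chromosome 13 under the line. In CC 6 promoters are at 100%, and from the 4-cell stage on most squares are at 0.

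Pooled over the members, exons and introns parted after 14 hpa. In CC, 82% of exonic and 78.5% of intronic bases were covered, in 6 hpa embryos 26.8% and 29.8%, and in 14 hpa embryos 45.6% and 45.3%. In 2-cell embryos exons had 7.37% and introns 20.2%, in 4-cell embryos 8.72% and 15.7%, in 8-cell embryos 4.05% and 13.9%, in morulae 5.24% and 19%, in ICM 0.926% and 17%, in TE 2.44% and 16.6% and in PN5 1.82% and 6.73%. In these pooled values introns were covered more than exons from 2-cell embryos on. Single members went the other way, and Nlrp5 had 44.7% of exonic and 19.2% of intronic bases covered in 2-cell embryos, 22.3% and 7.39% in 4-cell embryos and 8.34% and 6.55% in 8-cell embryos. Before that stage the pooled values also joined unlike genes, with 84.3% and 52.5% in Nlrp5 and 2.85% and 40.9% in Nlrp9c at 6 hpa. Over 21884 protein-coding genes 2.86% of exonic and 3.91% of intronic bases were covered in ICM and 2.95% and 3.73% in TE, whereas exons were above introns in 2-cell embryos (3.49% and 3.32%) and in PN5 (6.27% and 4.61%). GC content was 41.5% in the members' exons and 40.8% in their introns, and 93.4% of exonic and 82.9% of intronic 64-base words were single-copy. The part of shared sequence in the exon values was not tested.

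**Figure D4:**
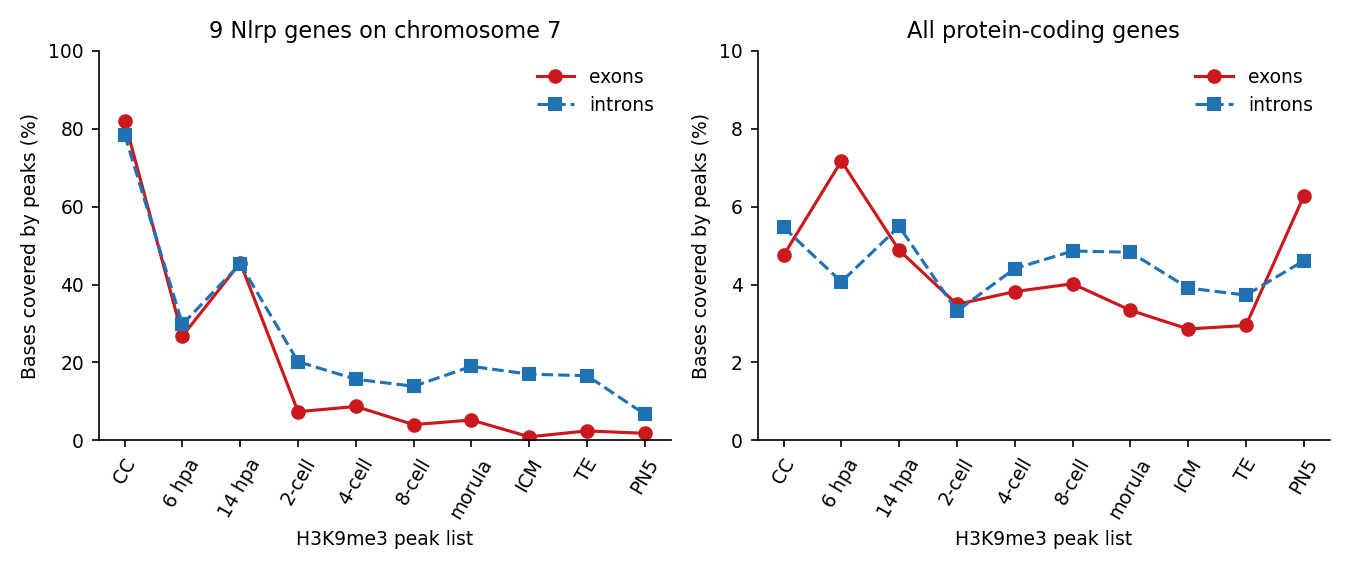
Percent of exonic (red circles) and intronic (blue squares) bases covered by H3K9me3 peaks in each of the 10 lists, for the 9 Nlrp genes on chromosome 7 (left, axis to 100%) and for all protein-coding genes (right, axis to 10%). The 2 lines on the left overlap up to 14 hpa and then separate, reaching 0.926% for exons and 17% for introns in ICM.

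Stretches covered in CC and in all 8 SCNT lists made up 15.1% of Nlrp4e, 10.2% of Nlrp9c, 3.19% of Nlrp4c and less than 2% of each other member, and Nlrp9a and Nlrp4f had none. The longest was in Nlrp4e and spanned 6873 bases (chr7:23308788-23315660), followed by 2857 bases (chr7:26335295-26338151) and 2847 bases (chr7:26359144-26361990) in Nlrp9c and 1729 bases in Nlrp4c (chr7:6084897-6086625). None of them held an exonic base. In the Nlrp4e stretch GC content was 51.5%, only 15.2% of the bases were soft-masked as repeats, and 74.6% of its 64-base words were single-copy. PN5 peaks covered 66.9% of it. The Nlrp9c stretches were covered to 13.5% and 84% in PN5 and the Nlrp4c stretch to 1.56%. The highest peak fold over the Nlrp4e stretch was lowest in PN5 (3.0) and 6 hpa embryos (3.08) and highest in 2-cell embryos (4.29) and ICM (4.20), with 3.48 in CC. These folds are averages over whole peaks, of 45480 bases in CC and 7325 bases in 2-cell embryos. They do not compare the stretch itself between lists.

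The middle 200 bases of the longest stretch in each of these 3 genes are shown. They were covered by peaks in CC and in all 8 SCNT lists. Each piece is given on the strand of the gene with CpGs in capitals.

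Nlrp4e intron (chr7:23312124-23312323, plus strand): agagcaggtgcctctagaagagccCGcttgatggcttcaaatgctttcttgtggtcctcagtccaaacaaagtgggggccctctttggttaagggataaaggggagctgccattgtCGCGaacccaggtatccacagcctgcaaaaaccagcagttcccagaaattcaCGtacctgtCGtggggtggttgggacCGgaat

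Nlrp9c intron (chr7:26336623-26336822, minus strand): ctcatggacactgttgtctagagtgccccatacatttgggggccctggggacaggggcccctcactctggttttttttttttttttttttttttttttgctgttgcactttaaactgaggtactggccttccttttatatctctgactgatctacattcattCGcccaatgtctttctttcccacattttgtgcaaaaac

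Nlrp4c intron (chr7:6085661-6085860, plus strand): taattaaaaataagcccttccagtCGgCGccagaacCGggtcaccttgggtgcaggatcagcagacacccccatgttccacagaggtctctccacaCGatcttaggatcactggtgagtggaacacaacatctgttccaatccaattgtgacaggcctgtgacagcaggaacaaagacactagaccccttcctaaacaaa

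These pieces held 6, 1 and 4 CpGs and had GC contents of 53.5%, 42% and 50%. They were read from the reference and not from the embryos. No other annotated gene overlapped these 3 stretches.

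The highest peak at any member was a narrow intronic peak of Nlrp5 in TE. It spanned 340 bases (chr7:23434052-23434391), with a fold of 6.13 and a −log10 q of 18.6, and 197 of the TE peaks were at least as high. All 10 lists had a peak over this site. The peak there had a fold of 3.22 in CC (a peak of 41533 bases), 3.89 and 2.97 in the 1-cell lists and 3.09, 3.54 and 4.43 in the cleavage lists. It had 3.24 in morulae, 3.28 in ICM, 6.13 in TE and 3.79 in PN5. Each fold is an average over the whole peak, so peaks of unlike length do not compare the site itself. The only bases of Nlrp5 covered in all 10 lists, 256 in all, lay here. The 8-cell peak had 256 bases and the TE peak 340, the narrowest of the 10.

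At this site the sequence itself was a tandem repeat. Over the 300 bases printed here, 87.0% of bases equalled the base 53 positions further on, GC content was 67.7%, and 50.5% of the 64-base words of the peak were single-copy. A second site, in an intron of Nlrp9b, had a 4-cell peak of 297 bases (chr7:19994611-19994907) with a fold of 5.47 and a morula peak with a fold of 5.27, and there 100% of the 64-base words were single-copy. It was not the highest peak of Nlrp9b. An ICM peak of 1795 bases elsewhere in that gene (chr7:20057552-20059346) had a fold of 5.51, and only 2.89% of its 64-base words were single-copy.

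Nlrp5 intron (chr7:23434072-23434371, plus strand): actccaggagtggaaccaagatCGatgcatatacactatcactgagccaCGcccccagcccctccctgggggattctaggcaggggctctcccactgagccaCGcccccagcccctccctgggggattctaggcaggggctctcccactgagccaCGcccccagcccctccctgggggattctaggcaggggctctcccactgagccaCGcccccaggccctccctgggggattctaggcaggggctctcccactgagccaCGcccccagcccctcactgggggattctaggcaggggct

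Nlrp9b intron (chr7:19994611-19994907, plus strand): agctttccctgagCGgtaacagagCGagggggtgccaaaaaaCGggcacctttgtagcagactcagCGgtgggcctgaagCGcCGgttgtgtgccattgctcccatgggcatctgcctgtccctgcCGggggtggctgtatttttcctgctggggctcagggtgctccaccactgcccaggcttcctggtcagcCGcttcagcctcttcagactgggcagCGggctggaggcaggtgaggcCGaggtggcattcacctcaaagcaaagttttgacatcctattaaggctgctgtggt

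CpGs, in capitals, number 6 in the Nlrp5 site and 10 in the Nlrp9b site. The peak over the Nlrp9b site had a fold of 3.14 in CC, 3.82 and 2.82 in the 1-cell lists and 4.17, 5.47 and 3.69 in the cleavage lists. It had 5.27 in morulae, 3.28 in ICM and 4.30 in TE, and PN5 had no peak there. Each fold is an average over the whole peak and not over the site alone. These peaks ran from 254 bases in 8-cell embryos to 3362 bases in TE, so their folds do not compare the site itself between lists. The site was thus covered in CC and all 8 SCNT lists and not in PN5.

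Windows of low GC content were most often unmarked at 6 hpa. Of the 391 windows marked in CC, 254 were unmarked at 6 hpa (65.0%, 60.1 to 69.5%), close to the 65.1% over all CC-marked windows of the genome. By GC content the share was 91.8% (86.3 to 95.3%) of the 147 windows below 40%, 61.4% (53.9 to 68.4%) of the 171 windows at 40 to 45% and 19.2% (11.8 to 29.7%) of the 73 windows at or above 45%. Over the genome the same classes gave 93.5%, 71% and 29%. The order was therefore that of the genome, and the members' interval lay below the genome value in the middle class and included it in the other 2. Adjacent windows can lie under the same peak and are not independent, so these intervals are no test of a difference from the genome. Of the 254 windows, 36.6% were marked again at 14 hpa, and 67 of the 391 (17.1%, 13.7 to 21.2%) were marked in both 1-cell lists and in 2-cell embryos.

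The loss was uneven between genes. At Nlrp9a 31 of 33 CC-marked windows were unmarked at 6 hpa, at Nlrp4b 32 of 35 and at Nlrp4d 18 of 23, whereas at Nlrp5 it was 24 of 54 and at Nlrp4e 31 of 59. Median window GC content was 38.8%, 38.7% and 38.3% in the first 3 genes and 43.4% and 42.0% in the latter. The remaining members on chromosome 7 did not follow this order. At Nlrp4c, with a median of 42.8%, 25 of 40 were unmarked, a larger share than at Nlrp4e. At Nlrp9b (40.4%) it was 28 of 37 and at Nlrp4a (40.1%) 23 of 37. Nlrp9c had a lower median than any of these and yet a smaller share, 42 of 73. The part of GC content in the differences between genes was not tested. Of the 20 windows marked in CC and all 8 SCNT lists, 10 lay in Nlrp4e, 8 in Nlrp9c and 2 in Nlrp4c.

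**Figure D5:**
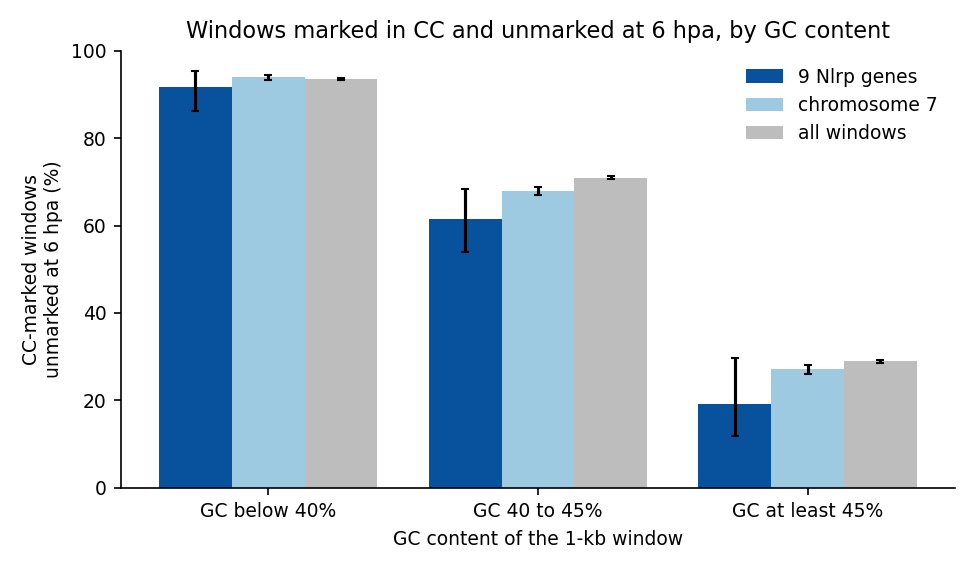
Percent of 1-kb windows marked in CC that were unmarked at 6 hpa, for windows of 3 GC classes in the 9 Nlrp genes, on chromosome 7 and in the whole genome, with Wilson 95% intervals as error bars (counting error only). In each set the share is highest below 40% GC and lowest at or above 45%, with 91.8% and 19.2% in the Nlrp genes.

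Repeated sequence was covered more than single-copy sequence in the SCNT lists. In CC, 79.7% of the single-copy positions of the 9 genes and 74.2% of the repeated ones were covered, in 6 hpa embryos 28.9% and 32.9%, and in 14 hpa embryos 43.1% and 57.2%. In ICM the values were 12.5% and 33.1% and in TE 13.0% and 28.1%. Single-copy positions were covered to 17.9% in 2-cell, 13.5% in 4-cell and 12.1% in 8-cell embryos and to 16.1% in morulae. Like the pooled values, their coverage was highest in CC and lower in every SCNT list. Peaks can span both kinds of position, so these values do not separate them, and the part of shared reads was not tested.

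Chaining members no more than 500 kb apart gave 5 clusters, of which 3 held more than 1 member. The cluster of Nlrp4e and Nlrp5 (chr7:23301192-23441922) was covered to 94.4% in CC, 43.9% and 61.8% in the 1-cell lists, 25.4% in 2-cell embryos, 15.3% in ICM, 16.5% in TE and 9.31% in PN5. Between its genes, coverage was 90.2% in CC and 0% in PN5. The cluster of Nlrp9c, Nlrp4a and Nlrp9a (chr7:26322473-26575615) had 83.7% in CC, 30.2% and 42.4% in the 1-cell lists, 21.2% in 2-cell embryos, 21.1% in ICM, 19.7% in TE and 8.32% in PN5. That of Nlrp4d and Nlrp4b (chr7:10358873-10730168), which also holds 5 other protein-coding genes, was covered to 65.5%, 12.0%, 32.1%, 7.04%, 6.77%, 5.83% and 2.44% in the same lists.

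The marked sequence did not end at the members. In the 50 kb on either side of a member, median coverage was 77.4% in CC, 26.1% and 42.7% in the 1-cell lists, 18.3% in 2-cell embryos, 15.7% in ICM and 7.62% in PN5. From the first to the last member, 56.2% of chromosome 7 was covered in CC, against 15.4% of the rest of that chromosome. This interval holds 426 other protein-coding genes, of which 177 (41.5%) were covered to at least 50% in CC, compared with 6.67% of the 1589 genes elsewhere on chromosome 7. At 6 hpa the interval was covered to 21.8% and the rest to 9.19%, and in TE to 13.5% and 7.20%. The Nlrp genes were thus part of a wide interval with high but uneven coverage in CC. Median CC coverage of its 426 other genes was 26.1%, against 0% over the genes elsewhere on chromosome 7. Its vomeronasal receptor genes included Vmn1r71 (95.2% in CC and 10.7% in 6 hpa embryos), Vmn1r68 (45.1% in CC) and Vmn1r91 (30.3% in CC).

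Among protein-coding genes of at least 5 kb outside the Nlrp family, the 3 whose coverage over the 10 lists was most like that of Nlrp5 were Mill1, Usp17le and Igfl3, with mean absolute differences of 3.51, 3.68 and 5.50 percentage points. Mill1, which encodes an MHC class I-like protein, was covered to 96.1% in CC and to 55.3% and 52.2% in the 1-cell lists. The 3 most like the median over members were Cyp2b9, a cytochrome P450 gene, Gm5891 and Vmn1r229, with mean absolute differences of 3.27, 3.65 and 4.38 points. Only Vmn1r229 of these 6 genes lies off chromosome 7.

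Other genes of the family and of the oocyte were mostly unmarked. Of 19 other NLR genes, 1 was covered to at least 50% in CC, namely Nlrp2, also on chromosome 7 and expressed in oocytes, with 85.9% in CC, 31.6% and 51.1% in the 1-cell lists and 0% in PN5. The median over these 19 genes was 3.89% in CC. Naip5, a sensor of bacterial flagellin, had 35.5% in CC and 58.0% at 14 hpa. Nlrp14, a germ-cell gene on chromosome 7, had 33.9% in CC and 10% and 19.4% in the 1-cell lists.

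Of the 5 partners of NLRP5 in the subcortical maternal complex (Tle6, Ooep, Khdc3, Padi6 and Zbed3), none was covered above 1.27% in CC. Khdc3, a short gene of 2603 bases, had 61.4% in 6 hpa embryos, 72.4% in 2-cell embryos and 0% in the other 8 lists. Tle6 had 47.1% in PN5 and at most 5.31% elsewhere. Of 18 other oocyte genes, including those of the zona pellucida and of the growth factors GDF9 and BMP15, 1 was marked in CC, namely Oas1d, with 55.8% in CC, 96.8% and 53.6% in the 1-cell lists and 55.5% in 4-cell embryos. The median over the 18 genes was 0% in CC. Gene bodies marked in CC thus numbered 8 of 9 for the Nlrp genes of chromosome 7, 1 of 19, 0 of 5 and 1 of 18 for these lists, against 4.76% of all genes. These counts are a description, with no test.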

How the data were processed

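The authors trimmed reads with cutadapt (1.16 in the submitters' processing notes), aligned them to mm10 with BWA, merged the replicates of a group with SAMtools, removed duplicates and drew an equal number of reads per list with Picard, and called broad peaks over input with MACS2. Versions of these other tools were not given in the sources used here. The deposited values used were each peak's fold enrichment, a ratio over input, and its −log10 q, both averaged over the peak by the authors' peak caller. Read counts of single libraries were not used here, and the pooled lists carry no replicate error.

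Peaks on 21 chromosomes were merged in Python 3 (pandas, NumPy and, for alignments, Biopython), and coverage was taken in bases over GENCODE M21 genes of mm10. Functions were tested on simulated data against base-by-base counts. Percentages over all genes refer to 21938 protein-coding genes, so Nlrp4d is in none of them. Protein sequences were not used, and identity between members was computed from coding sequences. The members and lists were chosen with earlier results of these data known. Named genes were all members, genes of the fixed lists covered to at least 50% in any list, and the 3 genes most like Nlrp5 or the members' median. Vmn1r71, Vmn1r68, Vmn1r91, Tle6 and Nlrp14 were named after their values were seen. Alternatives were a −log10 q of at least 2, lists trimmed to 134 Mb, peaks closer than 1 kb joined, other thresholds and promoter widths, and all 10 genes.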

Additional observations from a re-analysis of the deposited data

How the results depend on the processing

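No paired analysis was possible because each list joins all libraries of its group, which also means that single libraries could not be omitted. The direction of 1 comparison reversed: pooled coverage at 14 hpa was 1.53 times that at 6 hpa in the complete lists and 0.753 times with all lists trimmed to 134 Mb. Trimming keeps the peaks of highest −log10 q and so removes more from the longer lists. It brought pooled coverage to 50.8% in CC, 21% in 14 hpa embryos, 10.9% in 4-cell embryos, 11.5% in morulae and 12.7% in ICM, and the ratios to 0.886 for 2-cell embryos over 14 hpa, 0.302 for PN5 over 14 hpa and 0.125 for PN5 over CC. Over all protein-coding genes it gave 2.79% in CC, 3.61% in 6 hpa embryos and 2.96% in 14 hpa embryos. In trimmed lists 4 of 9 members were higher in 2-cell embryos than at 14 hpa. Gene bodies marked were then 5 in CC and 1 in 14 hpa embryos, and promoters marked 5 in CC, 1 in 14 hpa embryos and 0 in 8-cell embryos, morulae and TE.

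Peaks with a −log10 q of at least 2 gave 25.1% in 6 hpa embryos, 39.6% in 14 hpa embryos, 9.93% in 4-cell embryos, 9.49% in 8-cell embryos and 3.56% in PN5, and ratios of 0.0899 for PN5 over 14 hpa and 0.0469 for PN5 over CC. Promoters marked were then 5 in 6 hpa embryos, 1 in morulae, 1 in PN5 and 0 in 4-cell embryos, 8-cell embryos and TE. Joining peaks closer than 1 kb gave 84.8% in CC, 34.6% in 6 hpa embryos and 51.6% in 14 hpa embryos. With 25% of the gene as the threshold, gene bodies marked were 5 in 6 hpa embryos, 8 in 14 hpa embryos, 2 in 2-cell embryos, 4-cell embryos, ICM and TE, and 1 in 8-cell embryos and morulae.

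Promoters of 500 bases on either side gave 5 in 6 hpa embryos, 1 in morulae and 0 in 4-cell embryos, ICM and TE. With at least 50% of the promoter covered, the counts were 3 in 6 hpa embryos, 1 in 2-cell embryos and 0 in 4-cell embryos, 8-cell embryos, morulae, ICM, TE and PN5, so promoter counts after 14 hpa rest on the rule. With Nlrp4f included, pooled coverage was 75.4% in CC, promoters marked were 9 in CC, 9 in 6 hpa embryos and 6 in 14 hpa embryos, and the counts of gene bodies marked were as without it. The RefSeq start site of Nlrp9b was tried after seeing the data. Each list rests on an equal number of reads, and libraries of unequal signal to noise would still give lists of unequal length.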

Other observations

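Coverage was not even along the genes. With each of the 9 genes on chromosome 7 divided into 10 equal parts from its 5′ end, the first part was the most covered in CC, at 88.2%, and one of the least covered in 8-cell embryos, at 2.04%. The ninth part was the most covered in 6 hpa embryos (49.4%), in 14 hpa embryos (60.8%) and in 2-cell embryos (32.1%), and in ICM it had 29.3% against 6.49% in the first part. In TE the last part, at the 3′ end, had 1.12%.

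Beside the members, single neighbours had other courses of coverage. Gm42375, an antisense gene in the cluster of Nlrp9c, Nlrp4a and Nlrp9a, was covered to 100% in CC, in both 1-cell lists, in 4-cell embryos and in morulae, to 67.1% in ICM and to 7.43% in PN5. Cyp2a4, a cytochrome P450 gene next to the same cluster, had 100% in CC, 78.1% and 89% in the 1-cell lists, 57.1% in 2-cell embryos, 23.2% in ICM and 10.7% in TE. Zfp787, a zinc finger gene beside Nlrp4c, had no peak in CC and between 10.9 and 14.5% in each SCNT list from 2-cell embryos on. Igsf23, beside Nlrp9b, had no peak in CC and 41.4% in PN5. These 4 genes were chosen after their values were seen.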
